A study of Homo sapiens with 4 samples.

Results

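Fatty acid synthesis in liver cells is carried out by a short chain of enzymes under the control of a few regulators. Out of 59652 genes in the deposited table, 10 genes of that chain were chosen by name. No threshold was set on their values, but earlier results of these data were known when they were chosen. The regulators are MLXIPL, SREBF1 and THRSP. The enzymes are ACLY, ME1, ACACA, ACACB, FASN, ELOVL6 and SCD. All 10 were found in the table and all 10 had an FPKM (reads scaled to the length of the gene and the total of the library) over 0.5 in at least 1 library of each cell line. RNA was sequenced from Huh7 and PLC cells, a pair of wild-type human hepatocellular carcinoma lines, after 48 h in medium that held 5 mM glucose (low glucose) or 25 mM glucose (high glucose). The basal medium had no glucose of its own and held serum and antibiotics in every culture. Low and high glucose were compared to find RNAs whose level followed the glucose supply. The study has 1 library for every pairing of line and glucose concentration, so no difference between libraries has a replicate check, and the intervals given below cover counting error only.

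The pathway turns surplus glucose into fat. Glucose carbon leaves the mitochondria as citrate, ACLY splits citrate into acetyl-CoA in the cytosol, and acetyl-CoA carboxylase (ACACA in the cytosol, ACACB at the mitochondrial surface) makes malonyl-CoA from it. FASN joins these units into palmitate with NADPH, part of which comes from the malic enzyme ME1, and ELOVL6 lengthens and SCD desaturates the product. In the liver, transcription of these genes is driven by ChREBP (carbohydrate response element binding protein, the product of MLXIPL), which is activated by glucose metabolites, and by SREBP-1 (sterol regulatory element binding protein, the product of SREBF1), which is activated by insulin. THRSP, also called Spot 14, is a small nuclear and cytosolic protein that is induced with the lipogenic enzymes by thyroid hormone and carbohydrate.

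Library totals ran from 16049686 to 30279716 reads counted on genes, and the PLC library at 25 mM was the smallest. Of 10 marker genes of hepatocytes and liver tumours, all 10 had an FPKM over 0.5 in Huh7 and 9 in PLC cells, where TTR was the exception. Their summed FPKM was 5234 and 5436 in Huh7 at 5 and 25 mM and 766 and 1656 in PLC cells. The summed FPKM did not exceed 1.36 for 4 fibroblast markers, 2.55 for 3 endothelial markers, 0.0576 for 3 leukocyte markers and 0.158 for 3 adipocyte markers, and ADIPOQ had 0 reads in all 4 libraries. Since RNA came from whole cultures, fewer cells that express a gene and less of its RNA per cell cannot be told apart.

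SCD, which places the double bond that makes oleate, had the highest FPKM of the 10 genes in every library. It stood at 907.5 FPKM in Huh7 at 5 mM and 739.4 at 25 mM, and at 350.7 and 539.3 in PLC cells, where it ranked 29 and 21 by FPKM among protein-coding genes. FASN was next in 3 libraries, and ME1 took its place in PLC cells at 5 mM. ACLY and ME1 followed, then SREBF1, ACACA and ELOVL6, while MLXIPL, ACACB and THRSP made up the lower end. Neighbours in this order had separate counting intervals in all 4 libraries, except THRSP and ACACB in PLC cells at 25 mM. The distances between the genes differed by line. The FPKM of SCD was 3.60 and 3.50 times that of FASN in Huh7 and 7.48 and 8.10 times in PLC cells, at 5 and 25 mM. ACACA exceeded ACACB by 17.7 to 33.9 times in the 4 libraries. The 10 genes together took 0.912% of all reads in Huh7 cells at 5 mM (Wilson 95% interval 0.908 to 0.916) and 0.751% at 25 mM (0.748 to 0.754). In PLC cells they took 0.305% at 5 mM (0.303 to 0.307) and 0.433% at 25 mM (0.430 to 0.437). Their joint share was thus lower at high glucose in Huh7 and higher at high glucose in PLC cells. Most of these reads were on SCD and FASN, so the joint share mainly follows SCD and FASN. They had 101747 and 50158 of 195022 reads in Huh7 at 5 mM, and 45397 and 9955 of 69566 in PLC cells at 25 mM.

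**Figure D1:**
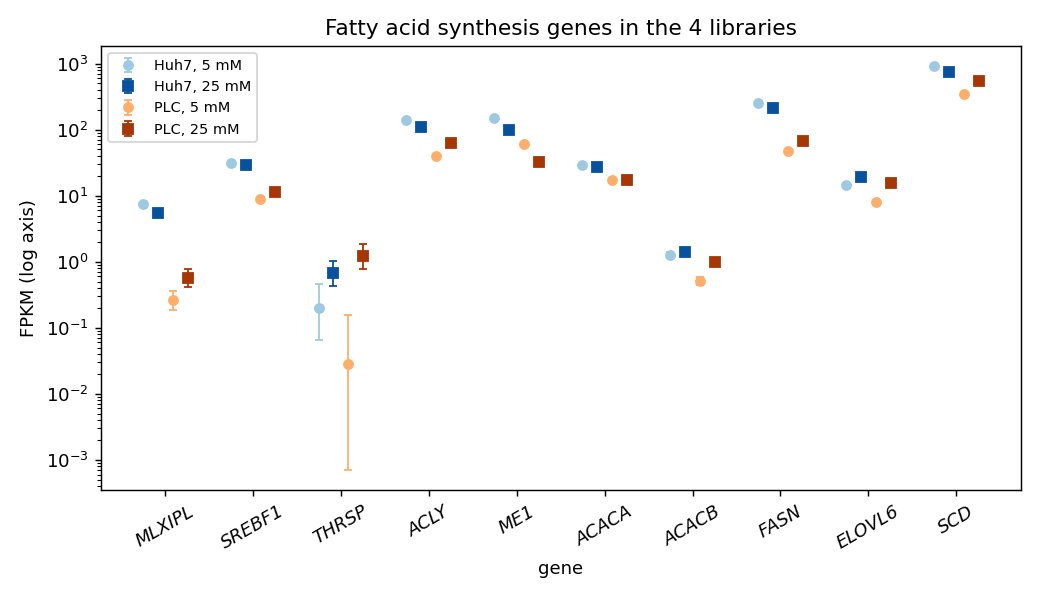
FPKM (log axis) of the 10 genes in the 4 libraries, 1 point per library, with exact Poisson 95% intervals that cover counting error only. SCD is at the top in every library (350.7 to 907.5 FPKM), and MLXIPL shows the widest gap between Huh7 cells (5.53 and 7.40) and PLC cells (0.261 and 0.569).

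For 6 of the 10 genes the level at high glucose was the lower one in Huh7 and the higher one in PLC cells, a difference that 1 library per condition does not allow to be tested. The ratio of FPKM at 25 mM to FPKM at 5 mM, taken with 0.1 added to both values, was below 1 for 7 of 10 genes in Huh7 and above 1 for 9 of 10 in PLC cells. Of all genes with FPKM above 0.5 in at least 1 library of the line, 10119 of 21864 were below 1 in Huh7. In PLC cells 12289 of 21749 were above 1. The counting interval excluded 1 for 9 of the 10 genes in each line, the exceptions being ACACB in Huh7 and ACACA in PLC cells. How many of all genes had such intervals, or lay on opposite sides of 1 in the lines, was not counted. The study set its thresholds (FPKM above 0.5, and a ratio above 1.5 or below 0.67) for long non-coding RNAs. Here they were applied to all genes, with FPKM above 0.5 asked of at least 1 library. Only THRSP was higher and only ME1 was lower in Huh7 cells, while 14.1% of all 21864 genes tested there passed as higher and 13.7% as lower. In PLC cells 6 of 10 genes were higher (MLXIPL, ACLY, ACACB, ELOVL6, SCD and THRSP) against 26.2% of the 21749 genes tested, and ME1 alone was lower, against 17.0%. Among protein-coding genes alone these shares were 5.91% and 5.71% in Huh7 and 18.8% and 11.5% in PLC cells. The median log2 ratio of the 10 genes was -0.19 in Huh7 and 0.63 in PLC cells, and that of all genes tested was 0.04 and 0.11. With edgeR's TMM factors as the scale, log2 ratios shifted by -0.04 in the Huh7 line and by -0.12 in the PLC line. ACLY and SCD then had ratios of 1.43 and 1.41 in PLC cells, which left 4 genes higher there, and ACACA moved from 1.01 to 0.925. The other 8 genes with ratios above 1 in PLC cells kept that side under TMM. MLXIPL and ACACB no longer passed in PLC cells once the FPKM minimum was raised to 1 or a constant of 1 was added. The summed hepatocyte markers were also higher at 25 mM in PLC cells (766 and 1656 FPKM), for the most part through AFP (306 and 1011 FPKM). FGB, SERPINA1, APOA1 and APOH also had ratios above 1.5 there. ALB, TF, HNF4A and APOB had 1.38, 1.20, 1.10 and 1.05, and TTR had 4 and 0 reads. The part of the markers in the ratios of the 10 genes was not tested.

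**Figure D2:**
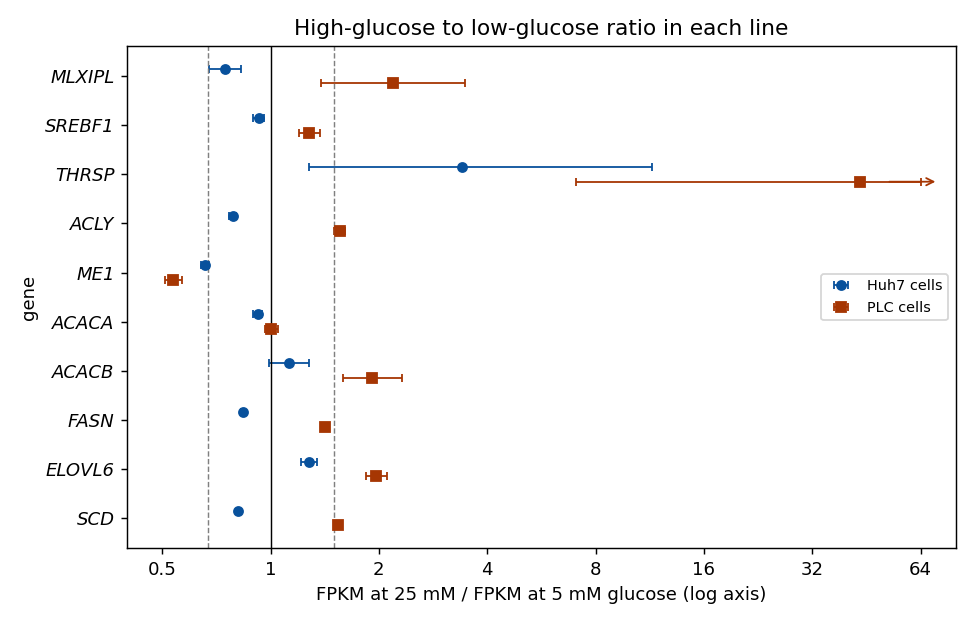
FPKM at 25 mM divided by FPKM at 5 mM glucose without an added constant (log axis), 1 point per gene and line, with exact 95% intervals that cover counting error only. The solid line marks 1, the dashed lines mark 0.67 and 1.5, and the arrow marks an interval that runs past the axis, that of THRSP in PLC cells, up to 1788. In PLC cells 9 of 10 points lie above 1, although ACACA has an interval that includes 1, and in Huh7 cells 7 of 10 lie below it.

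MLXIPL occupies chromosome 7 between 73593194 and 73624543 in GRCh38, the build of all positions given here, on the minus strand. In Huh7 cells 762 reads at 5 mM and 801 at 25 mM gave 7.40 and 5.53 FPKM. In PLC cells 38 and 44 reads gave 0.261 and 0.569 FPKM. The ratio was 0.750 in Huh7 cells (95% interval 0.676 to 0.826) and 1.86 in PLC cells (1.38 to 3.47), so the sensor gene itself was lower at high glucose in the line where it was more abundant. The PLC interval belongs to the ratio without the added 0.1, which was 2.18. ChREBP-alpha and the shorter ChREBP-beta start at separate promoters of MLXIPL, and counts per gene do not separate them.

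SREBF1 lies on chromosome 17 from 17810399 to 17837011, on the minus strand. It had 5486 and 7155 reads in Huh7 cells, or 31.1 and 28.9 FPKM at 5 and 25 mM. PLC cells had 2222 and 1511 reads, or 8.90 and 11.4 FPKM. The ratios of 0.927 (0.895 to 0.960) and 1.28 (1.20 to 1.37) lay on opposite sides of 1, and neither passed a threshold. SREBF1 shares 556 bases (6.75%) of its exons with RAI1 on the opposite strand, whose ratios were 1.10 and 0.793, each on the other side of 1 from those of SREBF1. Whether the counting used the strand of the reads is not given in the sources used here. SREBP-1a and SREBP-1c are made from different first exons of SREBF1 and cannot be separated either. The paralogue SREBF2, which serves mainly sterol synthesis, was close to SREBF1 in Huh7 (SREBF1 FPKM 0.847 and 0.977 times that of SREBF2) and well above it in PLC cells (0.249 and 0.304 times).

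THRSP and ME1 passed the thresholds in a common direction in both lines, THRSP as higher and ME1 as lower at 25 mM. Their promoters are shown for that reason, each as the 250 bases before a RefSeq transcription start in GRCh38.p14, read 5′ to 3′ on the strand of the gene. Capitals mark matches on either strand to the letters CCAAT (the NF-Y box), GGGCGG (the Sp1 box) or TGACNNNGC (an antioxidant response element core). The window of THRSP is chr11:78063611-78063860 on the plus strand and that of ME1 is chr6:83431052-83431301 on the minus strand.
THRSP: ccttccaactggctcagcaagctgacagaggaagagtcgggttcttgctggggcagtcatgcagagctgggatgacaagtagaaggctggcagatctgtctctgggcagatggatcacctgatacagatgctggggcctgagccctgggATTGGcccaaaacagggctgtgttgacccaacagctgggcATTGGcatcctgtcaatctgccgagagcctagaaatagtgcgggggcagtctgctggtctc
ME1: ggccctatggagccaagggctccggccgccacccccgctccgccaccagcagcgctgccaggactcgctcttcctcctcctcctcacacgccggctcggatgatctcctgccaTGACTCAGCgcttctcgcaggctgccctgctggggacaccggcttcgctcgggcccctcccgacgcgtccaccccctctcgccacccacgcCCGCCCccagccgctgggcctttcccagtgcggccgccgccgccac

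THRSP lies on chromosome 11 from 78063861 to 78068351. In Huh7 cells it had 5 reads at 5 mM and 24 reads at 25 mM, or 0.199 and 0.680 FPKM. In PLC cells it had 1 read at 5 mM and 23 at 25 mM, or 0.0281 and 1.22 FPKM. More reads were thus counted at high glucose in both lines, from very low levels. With 0.1 added, the ratio was 2.61 in Huh7 and 10.3 in PLC cells. Without it, the ratio was 3.41 (1.28 to 11.4) in Huh7 and 43.4 in PLC cells, with an interval from 7.05 to 1788 because 1 read stands in the denominator. In Huh7 cells THRSP no longer passed once the FPKM minimum was raised to 1 or a constant of 1 was added. Of the exons of THRSP, 55 bases (4.69%) are shared with NDUFC2 on the opposite strand, a subunit of respiratory complex I with 13.5 to 17.3 FPKM and ratios of 1.06 and 1.27. The window above holds NF-Y boxes on its minus strand at 101 to 97 and 61 to 57 bases before the start.

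ME1, the cytosolic malic enzyme that yields NADPH, lies on chromosome 6 from 83210402 to 83431051, on the minus strand. Huh7 cells had 10659 reads at 5 mM and 9875 at 25 mM, or 149.4 and 98.3 FPKM. PLC cells had 6099 and 1736 reads, or 60.3 and 32.4 FPKM. By library totals ME1 was the only one of the 10 genes with a ratio below 1 in both lines (ACACA joined it under TMM scaling), 0.658 (0.640 to 0.677) in Huh7 and 0.538 (0.509 to 0.567) in PLC cells. In Huh7 cells the ratio was close to the threshold of 0.67, and the upper end of its interval lay above it. The window above holds 1 match to the antioxidant response element core, at 137 to 129 bases before the start. These letters were added to the search after the sequence had been seen.

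ACLY and SCD bracket the chain, the first enzyme in the cytosol and the last, and went together in both lines. The first of 2 ACLY windows, chr17:41919023-41919272 on the minus strand, and the SCD window, chr10:100346983-100347232 on the plus strand, are given as above.
ACLY: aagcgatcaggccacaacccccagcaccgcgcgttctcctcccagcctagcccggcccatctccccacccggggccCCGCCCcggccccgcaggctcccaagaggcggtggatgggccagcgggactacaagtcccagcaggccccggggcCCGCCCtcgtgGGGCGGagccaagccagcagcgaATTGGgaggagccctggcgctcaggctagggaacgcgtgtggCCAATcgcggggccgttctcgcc
SCD: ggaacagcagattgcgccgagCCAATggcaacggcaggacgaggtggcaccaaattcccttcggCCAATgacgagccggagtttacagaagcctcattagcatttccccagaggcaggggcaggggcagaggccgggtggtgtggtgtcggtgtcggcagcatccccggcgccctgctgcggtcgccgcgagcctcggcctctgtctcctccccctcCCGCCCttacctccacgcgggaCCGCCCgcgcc

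ACLY lies on chromosome 17 from 41866917 to 41930542, on the minus strand. It had 15448 and 17063 reads in Huh7 (138.8 and 108.9 FPKM at 5 and 25 mM) and 6324 and 5216 in PLC cells (40.1 and 62.4 FPKM). The ratios were 0.785 (0.768 to 0.802) and 1.55 (1.4998 to 1.61). SCD, on chromosome 10 from 100347233 to 100364826, had 101747 and 116681 reads in Huh7 and 55703 and 45397 in PLC cells. Its ratios of 0.815 (0.808 to 0.822) and 1.54 (1.52 to 1.56) were near those of ACLY. Both genes were thus lower at high glucose in Huh7 and higher in PLC cells, where they sat just inside the threshold of 1.5. The shared exon bases of ACLY (156, 2.995%) belong to AC125257.2, which had 0 reads in all 4 libraries. Both windows hold 2 NF-Y boxes, at 65 to 61 and 23 to 19 bases before the start in ACLY and at 229 to 225 and 186 to 182 in SCD.

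ACACA makes most of the malonyl-CoA used for synthesis and lies on chromosome 17 from 37084992 to 37406836, on the minus strand. It had 8079 and 10476 reads in Huh7, or 29.0 and 26.7 FPKM, and 6847 and 3648 reads in PLC cells, or 17.4 and 17.5 FPKM. It showed the smallest difference of the 10 genes in PLC cells, with ratios of 0.922 (0.895 to 0.949) in Huh7 and 1.01 (0.965 to 1.05) in PLC cells. ACACB, whose malonyl-CoA restrains fatty acid import into mitochondria, lies on chromosome 12 from 109116595 to 109268226. It had 389 and 615 reads in Huh7 (1.25 and 1.41 FPKM) and 225 and 229 in PLC cells (0.512 and 0.984 FPKM). Its ratios were 1.11 (0.988 to 1.28) and 1.77 (1.59 to 2.32). The minor carboxylase was thus the one past the threshold in PLC cells, and at 5 mM it lay just above the FPKM minimum of 0.5.

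FASN, the multienzyme that builds palmitate, lies on chromosome 17 from 82078338 to 82098294, on the minus strand. It had 50158 and 59161 reads in Huh7 (251.7 and 211.0 FPKM) and 13239 and 9955 in PLC cells (46.9 and 66.5 FPKM). Its ratios of 0.838 (0.828 to 0.848) and 1.42 (1.38 to 1.46) lay on opposite sides of 1, just short of the threshold in PLC cells. ELOVL6 extends palmitate to stearate and lies on chromosome 4 from 110045846 to 110199199, on the minus strand. It had 2289 and 4118 reads in Huh7 (14.7 and 18.8 FPKM) and 1734 and 1807 in PLC cells (7.87 and 15.5 FPKM). With ratios of 1.28 (1.21 to 1.35) and 1.95 (1.84 to 2.10), ELOVL6 was the only abundant enzyme of the chain above 1 in both lines with intervals that excluded 1.

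Promoter windows were found for 9 of the 10 genes (13 windows), among 35116 windows of all genes. The E-box CACGTG was in none of the 9 genes and in 6.35% of all windows, and the sterol regulatory element core TCACNCCAC was in none and in 0.883%. Matches outside these 250 bases were not searched. The NF-Y box was in at least 1 window of 5 of 9 genes (ACLY, ACACA, ACACB, SCD and THRSP) and in 32.01% of all windows. The Sp1 box was in 8 of 9, all but THRSP, and in 42.6% of all windows, and matches to it overlap each other in ACACA. The antioxidant response element core was in ME1 alone and in 10.9% of all windows. ACLY, ACACA and ACACB have more than 1 window each, so counts of genes and shares of windows are not on the same base. A match is a description of letters, not of a bound site.

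The lines were next set against each other gene by gene, as the ratio in PLC cells divided by the ratio in Huh7 cells, both taken here without the added 0.1, so that quotients of the ratios printed above differ for genes of low level. This quotient was above 1 for 9 of 10 genes, with counting intervals that excluded 1 for all 9 by library totals. The share of all genes with a quotient above 1 was not calculated. Over all genes tested the median log2 ratio was itself higher in PLC cells (0.11) than in Huh7 cells (0.04). It was 2.92 for MLXIPL (95% interval 1.83 to 4.70), 1.98 for ACLY (1.90 to 2.07), 1.89 for SCD (1.86 to 1.92), 1.69 for FASN (1.64 to 1.74) and 1.38 for SREBF1 (1.28 to 1.49). ACACB and ELOVL6, above 1 in both lines, had 1.71 (1.36 to 2.15) and 1.54 (1.41 to 1.67). ACACA had the smallest quotient of the 9, 1.09 (1.04 to 1.15), which was 1.03 under TMM and 1.01 under DESeq2 scaling, and its interval, moved by the same factor, then included 1. The least certain was that of THRSP, 12.7 (1.25 to 627). ME1 was the exception at 0.816 (0.768 to 0.866), since it was lower at high glucose by more in PLC cells. With 1 library per condition these quotients compare 4 libraries, and a different response of the lines and a difference between single cultures cannot be told apart.

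**Figure D3:**
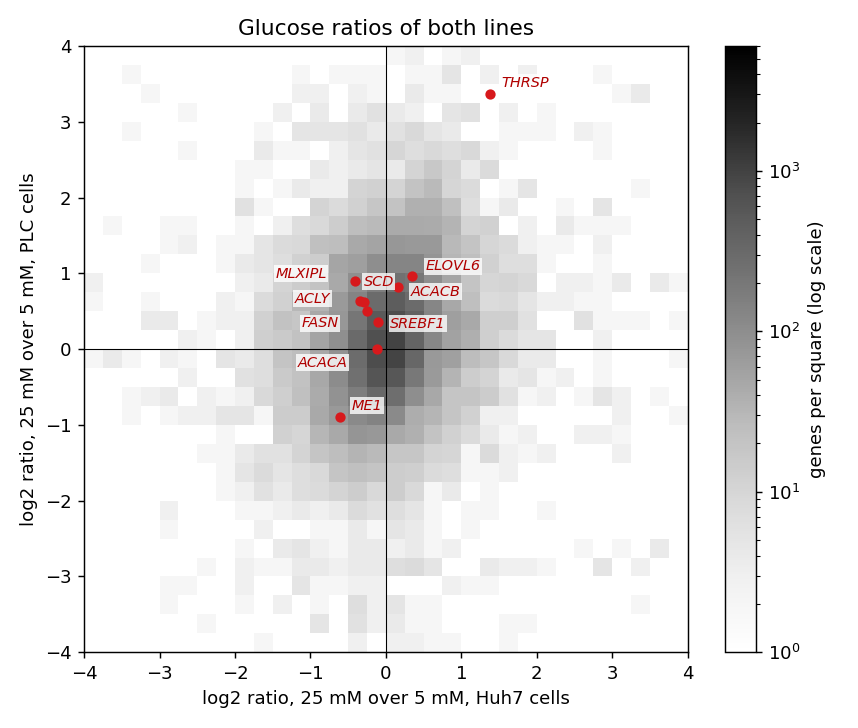
Log2 ratio of 25 mM over 5 mM glucose in Huh7 cells (horizontal axis) and PLC cells (vertical axis), with the 10 genes as red points over grey squares that count 18108 genes tested in both lines (log scale of grey), of which 253 lie outside the axes. MLXIPL, ACLY, SCD, FASN, SREBF1 and ACACA lie left of 0 in Huh7 cells and at or above 0 in PLC cells, ME1 is below 0 in both lines, and THRSP, ELOVL6 and ACACB are above 0 in both.

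The one glucose test that 4 such libraries allow is of a change common to both lines, which was made with edgeR (quasi-likelihood test on the counts), a term for the line and Benjamini-Hochberg adjustment over all genes. The lines are not replicate cultures, the fit has 1 residual degree of freedom, and opposite changes cancel in it. None of the 10 genes passed at an adjusted p of 0.05, against 0.379% of 23217 genes tested (88 genes). An unadjusted p under 0.05 was found for 3 of the 10 (0 to 3 in the 6 alternative fits), against 1975 of the 23217 genes. The unadjusted counts of the gene lists further below are to be read against the same 1975 of 23217. The log2 fold change of ME1 was -0.83 (standard error 0.21), with an adjusted p of 0.130 in edgeR. Under the 6 alternative fits its log2 fold change stayed negative and its adjusted p ran from 0.0235 (edgeR without a filter on low counts) over 0.0357 (DESeq2) to 1.0 (edgeR without the cell line term). In the same edgeR fit THRSP stood at 3.07 on the log2 scale (standard error 1.03) with an adjusted p of 0.320, and ELOVL6 at 0.58 (standard error 0.23) with an adjusted p of 0.465. The other 7 genes lay between -0.14 (ACACA) and 0.47 (ACACB) on the log2 scale.

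Most of the 10 genes had a lower level in PLC than in Huh7 cells at either glucose concentration. In the line term of the same edgeR fit, which compares the pair of PLC libraries with the pair of Huh7 libraries, 8 of the 10 genes were lower in PLC cells, against 21.8% of all genes tested, and none was higher. The libraries of a pair differ in glucose and are not replicate cultures. The p-values of this term therefore do not measure the spread between cultures of a line. MLXIPL differed most, by -4.04 on the log2 scale (standard error 0.40, adjusted p = 3.553e-06 in edgeR), and its FPKM in Huh7 was 20.8 times that in PLC cells at 5 mM and 8.41 times at 25 mM, with 0.1 added. FASN followed with -2.04 (standard error 0.21, adjusted p = 4.028e-06), SREBF1 with -1.57 (0.22, adjusted p = 8.199e-05) and ME1 with -1.45 (0.21, adjusted p = 0.0001056) in this edgeR test. ACLY, SCD, ACACB and ACACA had log2 fold changes of -1.29, -0.91, -0.90 and -0.67. ELOVL6 (-0.59, adjusted p = 0.0570 in edgeR) and THRSP (-0.17, adjusted p = 0.904) did not pass. The number of genes that passed was 7 to 9 in the 6 alternative fits. The summed hepatocyte markers also stood lower in PLC cells (766 and 1656 FPKM against 5234 and 5436). HNF4A went the other way, with 35.0 and 38.5 FPKM in PLC and 29.0 and 31.1 in Huh7 cells. The part of the markers in this difference was not tested. At 25 mM the levels of 9 genes, all but ME1, lay nearer together in the lines than at 5 mM. For genes lower in PLC cells at both concentrations this restates the quotients of the ratios above, which for ACACA was 1.03 under TMM scaling. THRSP changed sides, and its intervals included 1 at both concentrations. The FPKM of SCD in Huh7 was 2.59 times that in PLC cells at 5 mM and 1.37 times at 25 mM, the figures for FASN were 5.36 and 3.17, and those for ACLY were 3.45 and 1.74. For ME1 the gap was wider at 25 mM (3.03 times) than at 5 mM (2.47 times).

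**Figure D4:**
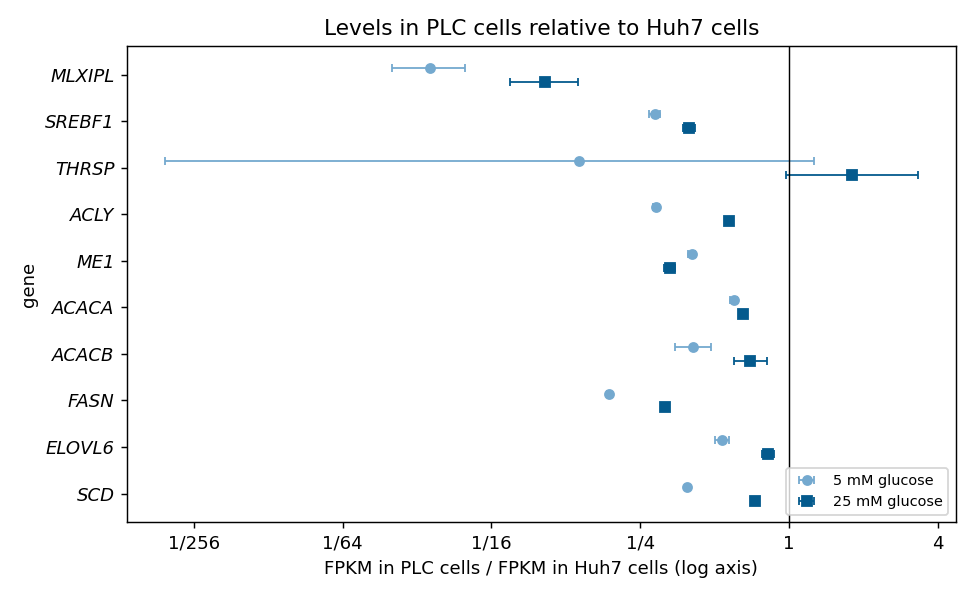
FPKM in PLC cells divided by FPKM in Huh7 cells without an added constant (log axis) at each glucose concentration, with exact 95% intervals that cover counting error only. All points but that of THRSP at 25 mM lie left of 1, the points at 25 mM lie nearer to 1 than those at 5 mM for all genes but ME1, and both intervals of THRSP include 1.

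Genes that feed the chain with acetyl-CoA and NADPH are read against the shares of all genes past the thresholds, 14.1% higher and 13.7% lower in Huh7 and 26.2% and 17.0% in PLC cells, as are the lists that follow. Of 13 such genes tested besides the 10, 2 were lower and none higher at 25 mM in Huh7, and 2 were higher and 1 lower in PLC cells. The lower genes in Huh7 were about as frequent as among all genes. Among protein-coding genes alone the share lower in Huh7 was 5.71%, so this reading depends on the background. The median log2 ratios were -0.10 and 0.00, the latter -0.12 under TMM scaling. ACSS2, which makes acetyl-CoA from acetate and is a known SREBP target, had 27.9 FPKM at 5 mM and 11.2 at 25 mM in Huh7 and 5.07 and 9.85 in PLC cells. Its ratios of 0.404 and 1.93 passed the thresholds in opposite directions. ME3, a mitochondrial malic enzyme, was lower in both lines (0.629 and 0.573), like ME1 but from FPKM values of 0.609 and 1.75 at 5 mM. IDH2, with 1.51 in PLC cells, was the other gene past a threshold. Counts past the thresholds in this list and those that follow are by library totals. The log2 shift of -0.12 in PLC cells under TMM scaling takes ratios just above 1.5, such as that of IDH2, below it. In the edgeR test of a shared change none of the 13 passed after adjustment and 1 had an unadjusted p under 0.05.

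Among the other elongases and desaturases, none of 14 genes tested was higher and 1, ELOVL7, was lower (0.635) in Huh7 cells. In PLC cells 3 of 15 were higher and 3 lower, and the median log2 ratios were 0.04 and 0.20 (-0.0011 and 0.08 under TMM scaling). TECR and HSD17B12, which complete each elongation cycle with ELOVL6, had ratios of 1.74 and 1.57 in PLC cells, while HACD2, a dehydratase of the same cycle, had 0.652. ELOVL4 and FADS3 had 0.324 and 0.350. ELOVL3 had 2 and 16 reads in PLC cells, a ratio of 5.52 with an interval from 3.55 to 135 for the ratio without the added 0.1. FADS2, which desaturates polyunsaturated fatty acids, had 56.4 and 57.8 FPKM in Huh7 and 0.739 and 0.915 in PLC cells. Of 7 genes for cofactor attachment and fatty acid activation, none passed in Huh7, and ACSL4 was higher (1.67) and ACSL1 lower (0.657) in PLC cells. AASDHPPT, which attaches the phosphopantetheine arm to FASN, had ratios of 1.03 and 0.978. HLCS, which attaches biotin to the carboxylases, had 0.854 and 1.49. None of these genes passed the edgeR test of a shared change, and 1 gene of each list had an unadjusted p under 0.05.

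The partners of SREBP-1 and ChREBP gave a mixed picture. None of 17 passed a threshold in Huh7, and 3 were higher and 1 lower in PLC cells, with median log2 ratios of -0.14 and 0.10 (-0.02 in PLC cells under TMM scaling). INSIG1, the SREBP target that holds SREBPs in the endoplasmic reticulum, had 53.3 and 44.3 FPKM in Huh7 and 7.76 and 19.3 in PLC cells. Its ratios of 0.832 and 2.47 lay on opposite sides of 1, as did those of SREBF1. PNPLA3, a lipid droplet protein under SREBP-1 control, had 0.821 and 2.31, the latter from only 19 and 30 reads (0.197 and 0.585 FPKM). The protease gene MBTPS1, which cleaves SREBPs, had 1.01 and 1.54. SCAP, the SREBP escort, had 1.10 and 1.04, and MLX, the dimer partner of ChREBP, had 0.908 and 1.07. The liver X receptors, which act on SREBF1, had 0.886 and 1.43 (NR1H3) and 1.04 and 1.08 (NR1H2). MID1IP1, the paralogue of THRSP that promotes polymerization of acetyl-CoA carboxylase, went the other way from THRSP in PLC cells. It had 40.8 and 20.2 FPKM there, a ratio of 0.495, against 0.988 in Huh7 cells. None of the 17 passed the edgeR test of a shared change and 1 had an unadjusted p under 0.05.

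Other genes that respond to carbohydrate were set beside the 10 genes. Among the 8 tested in Huh7, 2 were higher and 2 lower, and of 9 tested in PLC cells 6 were higher and 2 lower, against 14.1%, 13.7%, 26.2% and 17.0% of all genes. The median log2 ratios were -0.05 and 0.88. TXNIP, a target of ChREBP and its paralogue MondoA, had 8 and 439 reads in Huh7, a ratio of 20.4. In PLC cells TXNIP had 26 and 18 reads, or 0.238 and 0.311 FPKM, under the FPKM minimum in both libraries. Its ratio there was 1.22, and the interval of the ratio without the added 0.1 (0.675 to 2.48) included 1. In Huh7 cells high glucose thus went with more TXNIP while the abundant enzymes ACLY, FASN and SCD were slightly lower. In PLC cells PKLR, the liver pyruvate kinase, had 3.21 and 10.1 FPKM, a ratio of 3.07. KHK, the fructokinase, was higher in both lines (1.62 and 1.98), and GCKR, the glucokinase regulator, was lower in both (0.561 and 0.538). GPD1, which makes the glycerol backbone of triglycerides, had 0.588 in Huh7 and 2.09 in PLC cells, from at most 61 reads. None of the 12 genes in the edgeR test of a shared change passed after adjustment, and 3 had an unadjusted p under 0.05.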

How the data were processed

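RNA of Huh7 and PLC cells at 5 mM and 25 mM glucose was depleted of rRNA and sequenced as directional libraries. The authors deposited counts, the number of reads per gene, without normalization. The submitters' processing notes name HISAT2, featureCounts and hg38, while versions, roles, annotation release and strand setting are not given in the sources used here. The 10 genes and all gene lists were chosen with earlier results of these data known. Of the genes outside the 10, those past the thresholds in both lines or in opposite directions, those with the largest log2 ratio of a list, and the direct partners of the 10 are named. FADS2, and genes that make up a count of 5 or fewer, were named after their values were seen.

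Of 59657 data lines 59652 were used, since 5 hold a broken entry for ANK2. FPKM was calculated as count divided by table length and library total (21376239, 30085303, 30279716 and 16049686 reads in Huh7 cells at 5 and 25 mM and PLC cells at 5 and 25 mM). A floor of 3 reads corresponds to 0.0991 to 0.187 CPM. Ratios had 0.1 added to both FPKM values, except in quotients of the lines' ratios and in intervals. Intervals are 95% Clopper-Pearson for ratios, conditional exact for quotients of ratios, Poisson for FPKM and Wilson for shares. edgeR 4.0.16 (filterByExpr, TMM, quasi-likelihood test, terms for line and glucose) ran on the counts in R 4.3.3. A run on simulated counts was also made, with less spread than these data and no difference between the lines. That run therefore does not check the fit at the spread of these data. DESeq2 1.42.0, limma 3.58.1, other size factors and filters, other constants and thresholds, no second term in the fit, and merged-exon lengths of GENCODE 44 were alternatives. Promoters came from RefSeq (GRCh38.p14), without an entry for FASN.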

Additional observations from a re-analysis of the deposited data

Results flagged for a closer look

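For 6 of the 10 genes the ratio of 25 mM over 5 mM lay below 1 in the Huh7 libraries and above 1 in the PLC libraries, and the ratio in PLC cells divided by that in Huh7 cells, both without the added 0.1, was 2.92 for MLXIPL, 1.98 for ACLY, 1.89 for SCD, 1.69 for FASN, 1.38 for SREBF1 and 1.09 for ACACA. The weakest of these cases was ACACA, since its counting interval in PLC cells includes 1 and its ratio there was 0.925 under TMM scaling. Outside the 10 genes, ACSS2 (0.404 in Huh7 and 1.93 in PLC cells) and GPD1 (0.588 and 2.09) passed the thresholds in opposite directions. GPD1 had between 30 and 61 reads per library. With 1 library per line and glucose concentration, no test of these line differences was possible, and they were not tested.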

How the results depend on the processing

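Leaving out 1 library was not run, because no condition has a second. The labels carry no replicate numbers, and the line term of the edgeR fit is the only pairing of low with high glucose.

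With all ratios judged by 2 and 0.5, 1 gene (THRSP) remained higher and 0 lower in PLC cells, and 0 were lower in Huh7 cells. The 1 gene higher in Huh7 cells, THRSP, became 0 with a constant of 1, with FPKM over 0.5 in both libraries or with FPKM over 1. The 6 higher genes in PLC cells became 4 with a constant of 1, with TMM or DESeq2 scaling, with FPKM over 0.5 in both libraries or with FPKM over 1. Against protein-coding genes alone, the shares past the thresholds were 5.91% (higher) and 5.71% (lower) for Huh7 and 18.8% and 11.5% for PLC cells.

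The edgeR test of a shared change called 0 of the 10 genes, and 1 without a filter and 1 with DESeq2, in both cases ME1. Over all genes it called 88, against 526 without a filter, 197 with DESeq2, 27 with at least 10 counts in every library and 0 without the line term (52 unadjusted). Log2 fold changes near 0 turned: MLXIPL to -0.16 and FASN to -0.017 with limma, and MLXIPL to -0.37, FASN to -0.16, ACLY to -0.12, SREBF1 to -0.051 and SCD to -0.044 without the line term. THRSP turned to 0.31 in the line comparison without the glucose term. Under TMM scaling, the median log2 ratio became -0.0011 for the other elongases in Huh7 cells and -0.12 for substrate supply and -0.022 for the SREBP, LXR and MLX regulators in PLC cells. ACACA turned below 1 in PLC cells (0.925 by TMM), and its quotient of the lines' ratios went from 1.09 to 1.03 by TMM and 1.01 by DESeq2. The order of the 10 genes by FPKM did not change with GENCODE lengths. Depth limits THRSP (1 to 24 reads) and MLXIPL in PLC cells (38 and 44).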

Other observations

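AMPK phosphorylates and inhibits acetyl-CoA carboxylase when energy is low, and STK11 (LKB1) is a kinase upstream of it. Of 7 genes tested, AMPK subunits and STK11, none passed in Huh7 cells with the thresholds of the report. In PLC cells PRKAA1, a catalytic subunit, was higher at 25 mM (12.7 and 22.9 FPKM, ratio 1.81), while PRKAB2 (0.564) and PRKAG2 (0.499) were lower, against 26.2% of all genes higher and 17.0% lower. The median log2 ratios were -0.22 and -0.03, and none of the 7 passed the edgeR test of a shared change after adjustment, while PRKAB2 and PRKAG2, both lower at 25 mM, were the 2 with an unadjusted p under 0.05.

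Mitochondria have a fatty acid synthesis pathway of their own, which makes the octanoate for lipoic acid. Of its 9 genes none passed in Huh7 cells. In PLC cells LIPT2, the octanoyl transferase, was higher (43 and 66 reads, ratio 2.62), with MCAT (1.54) and CBR4 (1.89), and LIAS, the lipoic acid synthase, was lower (0.577). The median log2 ratios were -0.07 and 0.12, and none of the 9 passed the edgeR test of a shared change after adjustment, while 1 had an unadjusted p under 0.05.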
